A study of Mus musculus with 24 samples.

Results

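The protocadherin genes were followed through 24 poly-A RNA-seq libraries of mouse embryonic stem cells (mESCs) that carried hairpins against Mediator or Polycomb genes. Every gene symbol that starts with Pcdh followed by a digit, or by a, b or g and a further character, was a member, which gave 71 of the 22609 symbols in the count files. Of these, 12 were non-clustered genes, 22 belonged to the gamma cluster, 22 to the beta cluster and 15 to the alpha cluster. Enough reads for testing were found for 49 members, namely 11 non-clustered, 22 gamma, 14 beta and 2 alpha genes. A member had to be read in some group to be tested, so counts over the 49 say nothing of the other 22. A gene could also pass through the groups where it is high, which favours a call as higher there.

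All cells were of the E14TG2a line (129/Ola strain, derived from a blastocyst), grown without feeders in serum and LIF, the cytokine that holds mESCs in the pluripotent state. Groups of 3 libraries each came from cells after 24 h in 1e-06 M all-trans retinoic acid (RA) without LIF, stably transfected with shMed12, shCdk8 or the hairpin control shNMC, which has no mammalian target. Another 4 groups of 3 were pluripotent mESCs stably transfected with shMed12, shCdk8, shNMC or shRing1b, and 1 group of 3 was untransfected mESCs. The labels do not say how many hairpin sequences or clones stand behind a group, nor that replicates were separate cultures, so p-values measure the spread between these libraries, which may be technical. That spread was estimated over all 24 libraries together. RA and the loss of LIF came together and cannot be told apart, and no RA group exists here for shRing1b or for untransfected cells.

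Protocadherins are the largest branch of the cadherin superfamily of calcium-dependent adhesion proteins. The clustered genes lie in tandem on mouse chromosome 18, and in neurons each cell chooses a few of their promoters, which gives its surface an identity of its own. Each alpha or gamma gene has a long variable exon with its own promoter, spliced to small constant exons that all genes of the cluster share, while beta genes have no constant exons. CTCF and cohesin loop an enhancer to the chosen promoter, and DNA methylation by Dnmt3b and silencing by Smchd1 hold other promoters shut. The gamma C genes at the end of the cluster, and their alpha C relatives, differ from the other variable exons in sequence and are not chosen at random in the same way. The non-clustered genes are scattered over the genome and act in the adhesion and movement of embryonic tissues and in neural wiring. Med12 and Cdk8 encode subunits of the kinase module of Mediator, which bridges transcription factors and RNA polymerase, and Rnf2 encodes Ring1b, the ubiquitin ligase of Polycomb repressive complex PRC1, which silences developmental genes in mESCs.

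Shared exons bear on what a read can say. In the GENCODE vM21 annotation of GRCm38, the exon bases of each member were compared with the exons of any other gene on the same strand. A median of 44.7% of those of a gamma gene (31.5% to 66.8%, 22 genes) and 53.6% of those of an alpha gene (29.2% to 91.4%, 13 genes matched) were shared. In beta genes the share reached 9.67%, in Pcdhb21, and in non-clustered genes it was 0. A read from a constant exon cannot be given to 1 gene. Near-identical stretches remain in the exons that are not shared. Of the 50-base words there, 16.8% in Pcdhgb1, 16.4% in Pcdhgb2 and 11.9% in Pcdhgb6 also occur in a transcript of another gene. The share of such words reached 28.6% in alpha genes (Pcdha6) and 12% in beta genes (Pcdhb12). Values of those genes are therefore uncertain, since reads could be split or dropped between copies. The gamma C genes had 0% of such words.

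Promoter stretches are shown for Pcdh18, Pcdh19 and Pcdh8, picked by hand as examples with the results known. They come from the 5 non-clustered genes that rose with RA in shNMC cells and have a full window in the RefSeq table. They are RefSeq sequences of GRCm38.p6, read on the gene's own strand and ending before the first annotated transcript start so that no transcribed base is included, which makes their lengths differ. They are in lower case with CG dinucleotides in capitals. The Pcdh18 stretch is chr3:49757384-49757566 on the minus strand, the Pcdh19 stretch chrX:133689045-133689243 on the minus strand, and the Pcdh8 stretch chr14:79771313-79771562 on the minus strand.
Pcdh18: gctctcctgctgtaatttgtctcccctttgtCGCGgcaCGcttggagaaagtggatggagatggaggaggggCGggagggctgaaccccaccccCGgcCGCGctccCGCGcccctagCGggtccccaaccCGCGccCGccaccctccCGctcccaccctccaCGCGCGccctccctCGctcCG
Pcdh19: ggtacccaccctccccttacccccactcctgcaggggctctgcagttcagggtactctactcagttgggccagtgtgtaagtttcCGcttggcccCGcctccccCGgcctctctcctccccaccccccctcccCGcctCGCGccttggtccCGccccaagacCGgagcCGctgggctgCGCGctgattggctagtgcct
Pcdh8: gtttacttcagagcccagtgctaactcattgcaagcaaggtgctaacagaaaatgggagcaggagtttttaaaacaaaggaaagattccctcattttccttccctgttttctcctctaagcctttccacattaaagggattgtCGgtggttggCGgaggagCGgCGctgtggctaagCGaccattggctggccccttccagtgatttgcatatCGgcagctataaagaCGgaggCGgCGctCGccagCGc

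The Pcdh18 stretch held 19 CG dinucleotides in 183 bases, a number that 8.0% of 27025 RefSeq promoter windows of that length reached, against a median of 4. The Pcdh19 stretch held 11 in 199 bases, which 26.4% of windows reached, and the Pcdh8 stretch 11 in 250 bases, which 36.0% reached. Over the full windows of 300 bases, Pcdh18, Pcdh19 and Pcdh8 held 23, 18 and 14, numbers that 21.6%, 30.1% and 36.9% of promoters reached, so the low share for Pcdh18 holds for the trimmed stretch only. Of the other 2 that rose with RA in shNMC cells, Pcdh9 held 18 and Pcdh20 held 4 (68.1%). Pcdh10 and Pcdh17, not called with RA in shNMC cells, held 24 and 26 (20% and 16.8%). With RA in shCdk8 cells Pcdh10 was called higher, as was Pcdh7, which held 11 (41.9%). Half-sites of the kind bound by nuclear receptors such as the RA receptor were searched on both strands. The letters were AGGTCA, then the same with its first base changed (GGGTCA), its second changed (AGTTCA) or both (GGTTCA). Pcdh18 held 1 (TGAACC, the reverse complement of GGTTCA), Pcdh19 held 1 (AGTTCA) and Pcdh8 held 0, and 30.3%, 32.5% and 38.4% of windows of those 3 lengths held at least 1. Such a match describes letters and shows no binding.

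Counts per gene and library were compared as TMM-scaled CPM (reads scaled to a common library size) and tested with edgeR's quasi-likelihood F test over all 16280 genes that passed its filter, and a gene was called at a Benjamini-Hochberg adjusted p under 0.05. The 6 libraries of untransfected and shRing1b cells held 27.4 to 34.1 M gene counts, the other 18 held 37.8 to 57.3 M. Reads with several alignments made 20.02% to 21.7% of entries in the 6 and 44.1% to 49.1% in the 18, which bears on any level set across these sets. Med12 stood at 35.2 to 61.2 CPM in the 6 shMed12 libraries, and at 94.1 to 144 CPM in the 6 shNMC libraries. Cdk8 stood at 8.21 to 15.2 CPM in the 6 shCdk8 libraries, and at 42.6 to 56.1 CPM in the 6 shNMC libraries. Rnf2 had 52.4, 64.2 and 207 CPM in the libraries labelled shRing1b replicates 1, 2 and 3, against 221, 303 and 262 CPM in untransfected mESCs. The library labelled shRing1b replicate 3 thus goes against its label, and results for that group are given with and without it. The pluripotency factors Pou5f1, Nanog, Sox2, Zfp42, Esrrb and Klf4 summed to 2906.5 CPM or more in every mESC library other than those with shMed12, where they summed to 1790.9 to 2038.1 CPM.

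The 3 kinds of protocadherin took different shares of the reads. Summed over its 22 members, the gamma cluster stood at 61.9 ± 4.7 CPM in RA shMed12, 81.8 ± 5.7 in RA shCdk8, 72.0 ± 8.9 in RA shNMC, 44.4 ± 3.7 in mESC shMed12, 52.9 ± 8.8 in mESC shCdk8 and 46.9 ± 0.26 CPM in mESC shNMC (SD, n = 3 each). The non-clustered genes together stood at 89.2 ± 2.8 CPM in RA shMed12 and at 6.20 ± 0.92 CPM in mESC shNMC, the widest span of the classes shown. Pcdh1 alone gave 3119, 3792 and 3470 of the 4494, 5174 and 4948 non-clustered reads in RA shMed12. Pcdh19 gave another 904, 870 and 1050, so this sum mostly follows these genes. Beta genes reached 9.11 ± 0.95 CPM in RA shCdk8, and alpha genes 1.77 ± 0.17 CPM in the same group, their highest mean. These sums are descriptions, for which no test was made.

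**Figure D1:**
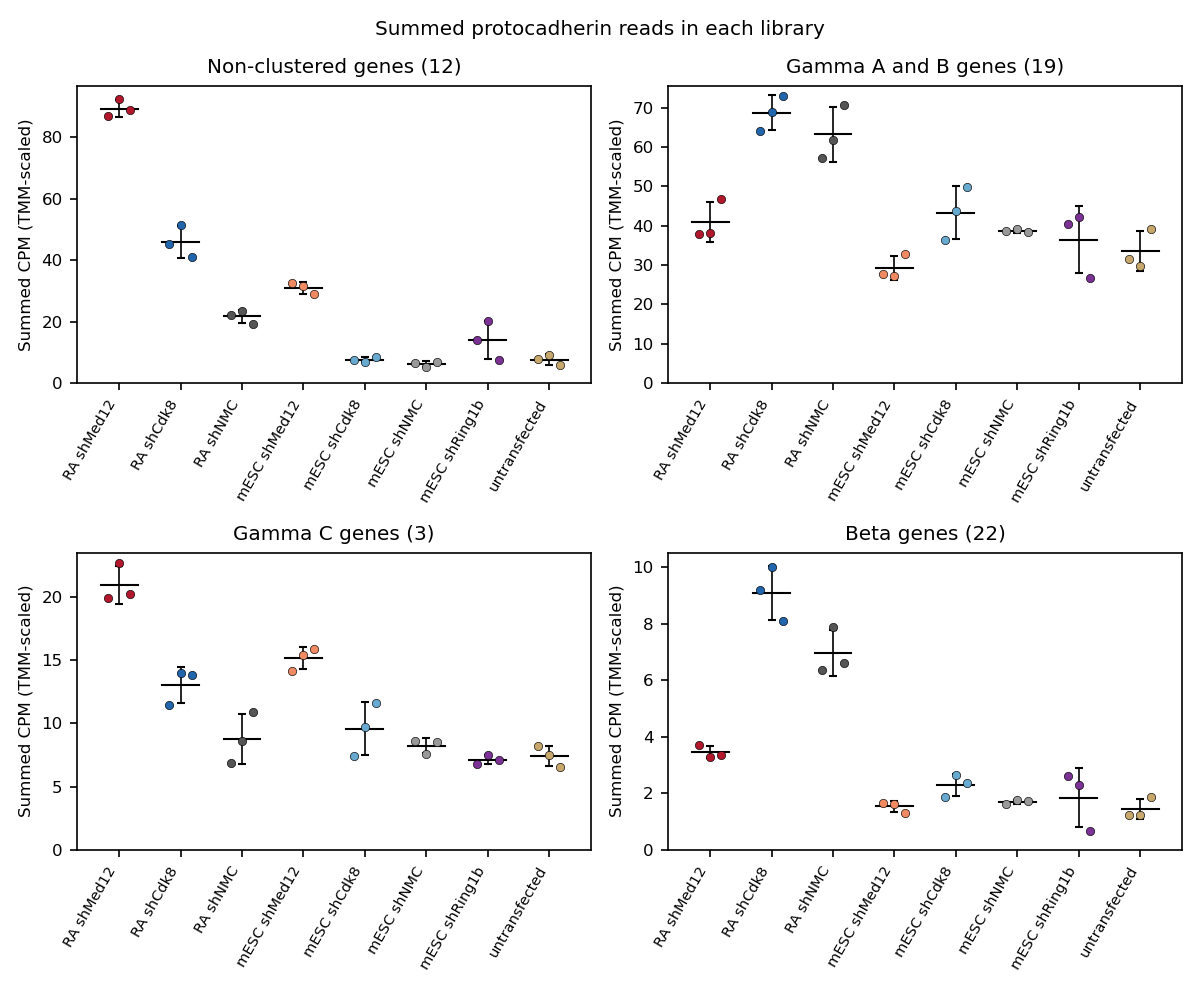
Summed TMM-scaled CPM of the non-clustered, gamma A and B, gamma C and beta protocadherin genes (y axes, each from 0) in the 8 groups (x axis). Points are libraries, lines and bars the mean ± SD of 3. Non-clustered and gamma C sums were highest in RA shMed12 (89.2 and 21.0 CPM), while gamma A and B and beta sums were highest in RA shCdk8 (68.7 and 9.11 CPM). In RA shMed12 most non-clustered reads were of Pcdh1 and most gamma C reads of Pcdhgc3.

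The first comparison asks what the Med12 hairpin did to these genes in pluripotent mESCs. Of the 11 non-clustered genes tested, 7 rose with shMed12 and 0 fell, where 20.6% of all genes rose and 19.9% fell (40.5% in all). Pcdh7, Pcdh12 and Pcdh11x, among the 7, passed the filter through shMed12 libraries alone. With 0 reads in shNMC mESCs they could not be called lower. The median log2 change of the 11 was 2.22, against -0.01 over all genes. Among gamma genes, 2 of the 3 C-type members rose, and 5 of the 19 A- and B-type members fell with 0 rising. No beta gene of 14 was called in either direction by edgeR (0 also at an unadjusted p under 0.05 or with DESeq2), and of the 2 alpha genes 1 rose. All 22 beta genes together held 200 reads in the shMed12 and 236 in the shNMC mESC libraries. At that depth a change in a beta gene could be missed.

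Pcdh1, an adhesion protein of epithelia, had 19.8, 18.1 and 19.7 CPM in shMed12 mESCs, against 4.23, 3.23 and 4.89 CPM in shNMC mESCs. The lowest shMed12 library was above the highest control (log2 change 2.22, SE 0.17, edgeR adjusted p = 1.1e-09). Pcdh18, which binds the reelin adaptor Dab1, had 4.38, 4.33 and 2.64 CPM in shMed12 mESCs, against 0.083, 0.157 and 0.0737 CPM in shNMC mESCs, so the groups stood far apart. Its log2 change of 5.11 (SE 0.37, edgeR adjusted p = 4.1e-10) had the lowest p of the members in this comparison.

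Pcdh7, whose intracellular part binds the phosphatase inhibitor SET, was read 270 times over the 3 shMed12 mESC libraries (2.24, 2.67 and 1.39 CPM) and 0 times over the 3 shNMC libraries. It was also at 0 in every shCdk8 and untransfected mESC library. Against a floor of 3 counts over the shNMC group, 0.0215 CPM, it was at least 95.3-fold higher with shMed12 (edgeR adjusted p = 2.9e-08). Pcdh12, a protocadherin of endothelium and of glycogen cells of the placenta, had 0.231, 0.282 and 0.242 CPM with shMed12 and 0 reads in the 3 shNMC libraries, at least 11.6-fold higher on the same floor (edgeR adjusted p = 5.2e-05). Pcdh11x, an X-linked member, had 0.3, 0.462 and 0.222 CPM with shMed12 and 0 reads with shNMC, at least 14.8-fold higher (edgeR adjusted p = 4.9e-05). These 3 genes were thus unread in the shNMC mESC libraries and read in every shMed12 library, though Pcdh12 and Pcdh11x rest on 33 and 42 reads.

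Pcdh19, an X-linked partner of N-cadherin whose human gene causes an epilepsy, had 4.8, 4.59 and 3.73 CPM in shMed12 mESCs, against 1.45, 1.34 and 1.25 CPM in shNMC mESCs, with no overlap (log2 change 1.69, SE 0.43, edgeR adjusted p = 0.0035). Pcdh20 was counted 17 times with shMed12 and 3 times with shNMC, a ratio of 6.00 (counting interval 1.74 to 31.9, edgeR adjusted p = 0.0495). That call ended in 5 of the 6 fits that left out 1 library, with adjusted p up to 0.17, and with median-ratio scaling (0.050) or no filter (0.0527). Pcdh8, paraxial protocadherin of the embryonic mesoderm, stood at 0.415, 0.641 and 0.463 CPM with shMed12 and 0.208, 0.236 and 0.221 CPM with shNMC, which do not overlap, but did not pass (log2 change 1.17, SE 0.53, edgeR adjusted p = 0.083). Pcdh9, Pcdh10 and Pcdh17, members known from the nervous system, had log2 changes of -0.23, -0.49 and 0.39 and did not pass either (edgeR adjusted p = 0.81, 0.66 and 0.67).

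**Figure D2:**
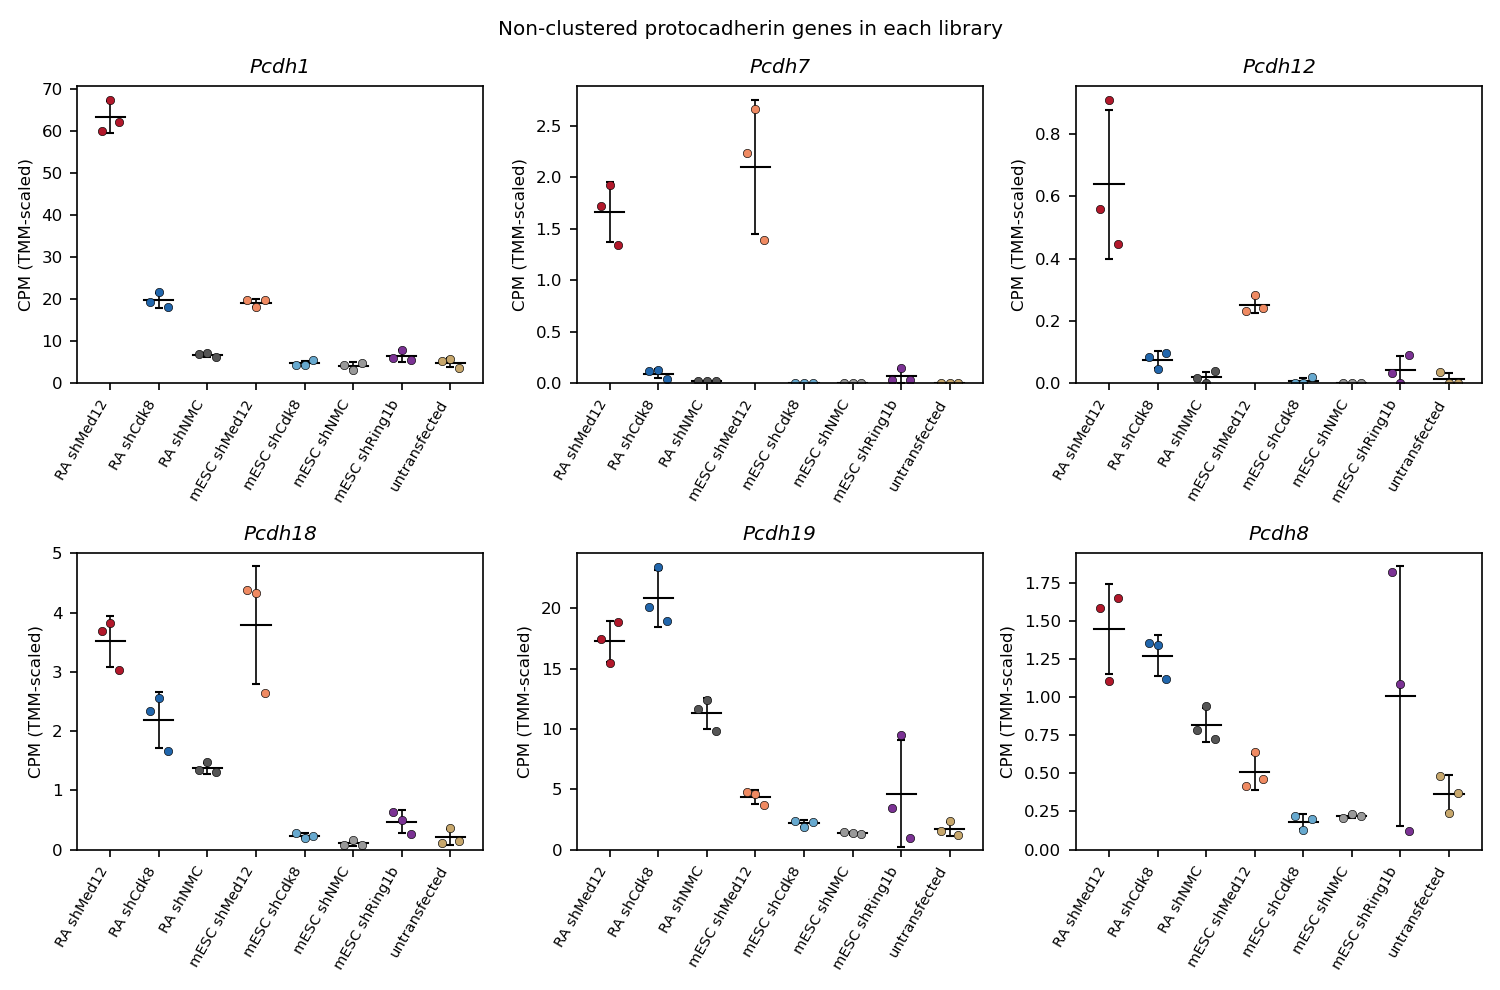
TMM-scaled CPM (y axes, each from 0) of 6 non-clustered genes in the 8 groups (x axis). Points are libraries, lines and bars the mean ± SD of 3. Pcdh1, Pcdh7 and Pcdh12 were high with shMed12 in both states (Pcdh7 at 2.10 CPM in mESCs and 1.66 CPM after RA), and Pcdh19 was highest in RA shCdk8 (20.8 CPM).

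In the gamma cluster the C genes are given before the rest. Pcdhgc3, which binds the Wnt-pathway scaffold Axin1, had 12.7, 13.9 and 14.5 CPM in shMed12 mESCs, against 8.05, 7.14 and 8.11 CPM in shNMC mESCs, without overlap (log2 change 0.82, SE 0.16, edgeR adjusted p = 0.00028). Pcdhgc5, which interacts with GABA receptors, had 1.18, 1.31 and 1.05 CPM against 0.394, 0.275 and 0.197 CPM (log2 change 2.0, SE 0.34, edgeR adjusted p = 6.6e-05). Pcdhgc4, which cortical interneurons need to survive, had 0.346, 0.205 and 0.322 CPM against 0.166, 0.138 and 0.246 CPM, groups that overlapped, and was not called (log2 change 0.69, SE 0.49, edgeR adjusted p = 0.28).

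The 5 gamma genes that fell were Pcdhgb8, which RefSeq lists as a transcribed pseudogene, Pcdhga12, Pcdhga9, Pcdhga3 and Pcdhga1. Pcdhgb8 had 1.25, 1.13 and 1.05 CPM in shMed12 mESCs, against 2.24, 1.95 and 2.48 CPM in shNMC mESCs (log2 change -0.96, SE 0.21, edgeR adjusted p = 0.00081). Pcdhga12 had 1.08, 1.05 and 1.43 CPM with shMed12, against 1.58, 2.3 and 2.63 CPM with shNMC (log2 change -0.86, SE 0.22, edgeR adjusted p = 0.0029). Neither pair of groups overlapped.

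Pcdhga9 had 0.485, 0.462 and 0.624 CPM with shMed12, against 1.25, 0.944 and 1.18 CPM with shNMC, and fell by 1.09 on the log2 scale (SE 0.32, edgeR adjusted p = 0.0093). Pcdhga3 and Pcdhga1 fell by 0.83 and 0.56 on that scale (edgeR adjusted p = 0.010 and 0.018), but the call of Pcdhga3 ended in 1 and that of Pcdhga1 in 3 of the 6 fits without 1 library (adjusted p up to 0.067 and 0.096). Without shMed12 replicate 2 the count of A and B genes that fell was 3. The remaining 14 A and B genes were not called. They included Pcdhga10 at 0.56, Pcdhgb4 at 0.29 and Pcdhgb6 at -0.68 on the log2 scale (edgeR adjusted p = 0.20, 0.44 and 0.11).

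The makeup of the gamma reads differed too. The 3 C genes took 32.7% to 36.2% of all gamma reads in the shMed12 mESC libraries, against 16.2% to 18.3% in the shNMC mESC libraries, ranges that do not meet. That share was mostly Pcdhgc3, with 549, 543 and 722 of the 615, 602 and 790 C reads in the shMed12 libraries. Counted per kilobase of exon bases that no other gene on the strand shares, Pcdhgc3 led in shMed12 mESCs at 4.06 ± 0.28 CPM per kb, followed by Pcdh1 at 2.18 ± 0.11. In shNMC mESCs Pcdhga1 at 2.51 ± 0.31 CPM per kb and Pcdhgc3 at 2.3 ± 0.16 led (SD, n = 3 each), within their spread of each other. Those lengths are from GRCm38, the counts are on mm9, and such values hold only if reads on shared exons were not counted, which the sources used here do not state.

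Alpha genes were close to unread in mESCs, at 49 reads for the 15 genes in the 3 shMed12 libraries and 38 reads in the 3 shNMC libraries. Pcdha10 was called higher from 7 reads with shMed12 and 0 with shNMC, at least 2.47-fold on the floor of 3 counts (edgeR adjusted p = 0.0345), and the call ended in 5 of the 6 fits without 1 library (adjusted p up to 0.11). Pcdhac2, which serotonergic axons need to space themselves, did not pass (edgeR adjusted p = 0.25).

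Markers of other cell types moved in the same libraries. All 7 trophectoderm markers in the files (Cdx2, Krt7, Krt8, Krt18, Krt19, Gata2 and Gata3) rose with shMed12 and summed to 560 to 729 CPM, against 17.4 to 22.9 CPM with shNMC. Of the 8 fibroblast and smooth muscle markers 5 rose and 2 fell, with sums of 446 to 515 CPM against 95.8 to 124 CPM. All 6 pluripotency markers fell, with sums of 1790.9 to 2038.1 CPM against 3548.7 to 3747.8 CPM. Of the 8 mesoderm markers, 7 were tested, of which 3 rose and 1 fell, and sums were 20.6 to 39.4 CPM with shMed12 and 3.34 to 3.81 CPM with shNMC. Of the 8 extraembryonic endoderm markers 0 rose and 4 fell, with sums of 7.44 to 8.91 CPM against 23.1 to 27.2 CPM. Endothelial markers (Pecam1, Cdh5, Kdr and Tek) summed to 72.3 to 98.9 CPM with shMed12 and 144 to 175 CPM with shNMC, with 2 of 4 lower and 0 higher, and none of them was at 0. Their part in the protocadherin changes was not tested, and in bulk RNA a change in the share of cells of a type and in RNA per cell cannot be told apart.

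The second comparison asks what 24 h of RA did in cells with the control hairpin. Of the 49 members tested 34 rose and 2 fell, where 27.3% of all genes rose and 24.1% fell (51.4% in all). By class, 7 of 11 non-clustered, 13 of 19 gamma A and B, 12 of 14 beta and both tested alpha genes rose, while 0 of 3 gamma C genes was called in either direction by edgeR (0 also at an unadjusted p under 0.05 or with DESeq2). The 2 that fell, Pcdhgb8 and Pcdhga12, lie side by side at the far end of the A and B genes. Of those that rose, Pcdh9, Pcdh20, Pcdha10, Pcdhb4, Pcdhb6, Pcdhb7, Pcdhb8, Pcdhb11, Pcdhb16, Pcdhb17 and Pcdhb19 passed the filter only with RA libraries. That favours a call as higher with RA, here and within the other hairpins. Median log2 changes were 2.92 in non-clustered, 1.03 in gamma A and B, 0.48 in gamma C and 1.99 in beta genes, against 0.02 over all genes, and with genes at the floor set to their bound the non-clustered median was 1.35. In the same comparison 6 of 7 trophectoderm markers rose, with sums of 35.5 to 47.4 CPM after RA, against 17.4 to 22.9 CPM in mESCs. Of the 7 mesoderm markers tested 4 rose and 1 fell (6.06 to 7.13 CPM for all 8, against 3.34 to 3.81 CPM), and all 6 pluripotency markers fell (1333.2 to 1645.8 CPM, against 3548.7 to 3747.8 CPM). Their part in the protocadherin changes was not tested.

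Among the non-clustered genes, Pcdh19 had 11.7, 12.4 and 9.83 CPM in RA shNMC cells, against 1.45, 1.34 and 1.25 CPM in shNMC mESCs (log2 change 3.06, SE 0.44, edgeR adjusted p = 6.1e-06). Pcdh18 had 1.34, 1.47 and 1.3 CPM after RA, against 0.083, 0.157 and 0.0737 CPM before (log2 change 3.65, SE 0.37, edgeR adjusted p = 8.2e-08). Both groups of libraries were clearly apart in each gene.

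Pcdh8 had 0.786, 0.941 and 0.726 CPM in RA shNMC cells, against 0.208, 0.236 and 0.221 CPM in shNMC mESCs (log2 change 1.87, SE 0.50, edgeR adjusted p = 0.0037). Pcdh1 had 6.84, 7.17 and 6.18 CPM after RA, against 4.23, 3.23 and 4.89 CPM before, a smaller rise without overlap (log2 change 0.71, SE 0.17, edgeR adjusted p = 0.0013). Pcdh20 was read 77 times after RA and 3 times before, a ratio of 21.6 (counting interval 7.12 to 107, edgeR adjusted p = 0.00011). Pcdh11x, at 13 reads against 0, was at least 3.65-fold higher (edgeR adjusted p = 0.0061). Pcdh9 rose by 1.35 (SE 0.55) on the log2 scale, with an edgeR adjusted p of 0.046 that 5 of the 6 fits without 1 library and DESeq2 took past the threshold (up to 0.15). Pcdh7 and Pcdh12 stayed at the floor, with 3 reads each after RA and 0 before, and Pcdh10 and Pcdh17 did not pass (edgeR adjusted p = 0.13 and 0.062).

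Beta genes are single-exon genes whose products sit in the same recognition complexes as alpha and gamma proteins. Pcdhb3 had 1.11, 1.33 and 1.12 CPM in RA shNMC cells, against 0.208, 0.157 and 0.0983 CPM in shNMC mESCs (log2 change 2.90, SE 0.37, edgeR adjusted p = 1.2e-06). Pcdhb2 had 0.858, 0.976 and 1.17 CPM after RA, against 0.104, 0.118 and 0.295 CPM before (log2 change 2.57, SE 0.41, edgeR adjusted p = 2.4e-05). Pcdhb16, Pcdhb22 and Pcdhb14 rose by 2.26, 1.37 and 1.55 on the log2 scale (SE 0.47, 0.29 and 0.49, edgeR adjusted p = 0.00040, 0.00053 and 0.011). The call of Pcdhb14 ended in 2 of the 6 fits without 1 library (adjusted p up to 0.058), and that of Pcdhb19 in 3 of the 6 (up to 0.27). Only Pcdhb18 and Pcdhb20 of the 14 tested beta genes were not called (edgeR adjusted p = 0.24 and 0.072).

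In the gamma cluster Pcdhga4 had 6.06, 5.04 and 5.33 CPM in RA shNMC cells, against 1.95, 2.16 and 2.06 CPM in shNMC mESCs (log2 change 1.41, SE 0.19, edgeR adjusted p = 2.1e-06). Pcdhga5, Pcdhga3, Pcdhga6 and Pcdhga7 rose by 1.44, 1.16, 1.71 and 1.07 on the log2 scale (edgeR adjusted p = 6.0e-05, 0.00035, 0.00036 and 0.00055). Pcdhgb4, Pcdhga10, Pcdhgb1, Pcdhga9, Pcdhgb2, Pcdhgb6, Pcdhga2 and Pcdhga8 rose by 0.80 to 1.43, the lowest being Pcdhga2 and the highest Pcdhga10, and Pcdhga8 at an edgeR adjusted p of 0.0497 was lost in 5 of the 6 fits without 1 library (up to 0.21). Pcdhgb8 had 0.59, 0.515 and 0.484 CPM after RA, against 2.24, 1.95 and 2.48 CPM before (log2 change -2.06, SE 0.22, edgeR adjusted p = 1.3e-07). Pcdhga12 had 1, 1.14 and 1.38 CPM after RA, against 1.58, 2.3 and 2.63 CPM before (log2 change -0.89, SE 0.21, edgeR adjusted p = 0.0015). Pcdhga1, Pcdhga11, Pcdhgb5 and Pcdhgb7 were not called, nor was Pcdhgc3, with 6.38, 7.81 and 10 CPM after RA, against 8.05, 7.14 and 8.11 CPM before (log2 change 0.06, SE 0.16, edgeR adjusted p = 0.79).

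Alpha genes were read mainly after RA. The 15 genes gathered 211 reads in RA shMed12, 313 in RA shCdk8 and 265 in RA shNMC, against 33 to 50 in each mESC group. Pcdhac2 had 0.608, 0.728 and 0.931 CPM in RA shNMC cells, against 0.125, 0.157 and 0.221 CPM in shNMC mESCs (log2 change 2.17, SE 0.42, edgeR adjusted p = 0.00021). Pcdha10 was at least 5.33-fold higher, from 19 reads against 0 (edgeR adjusted p = 0.0026). The other 13 alpha genes did not reach the filter, with 0 to 95 reads over all 24 libraries. Pcdha6 and Pcdha3 had the most of these (95 and 91 reads), of which 29 and 28 fell in RA shNMC and 4 and 2 in mESC shNMC. Pcdha4 and Pcdha4-g were listed at 0 in all 24 libraries, where 91.4% of the exon bases of Pcdha4 are shared.

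The third comparison puts shMed12 beside shNMC after RA. Non-clustered genes again rose, 5 of 11 with 0 falling, where 21.3% of all genes rose and 20.6% fell (41.9% in all). Among the 5 were Pcdh7, Pcdh12 and Pcdh11x, which passed the filter through shMed12 libraries alone. All 3 gamma C genes rose, while 9 of 19 gamma A and B, 7 of 14 beta and 1 of 2 alpha genes fell, with 0 rising in any of these 3. Several other fits called the gamma A gene Pcdhga11 higher, as given below. Median log2 changes were 0.82 in non-clustered, 1.25 in gamma C, -0.66 in gamma A and B and -1.27 in beta genes, against -0.00 over all genes. This comparison and the RA response share the RA shNMC libraries.

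Pcdh1 reached its highest level here, with 60.2, 67.6 and 62.2 CPM in RA shMed12 cells, against 6.84, 7.17 and 6.18 CPM in RA shNMC cells (log2 change 3.23, SE 0.17, edgeR adjusted p = 7.7e-12). Pcdh7 had 1.72, 1.93 and 1.35 CPM in RA shMed12 cells, against 0.0179, 0.0177 and 0.0186 CPM in RA shNMC cells. That is 272 reads against 3, a ratio of 91.9 (counting interval 31.1 to 449, edgeR adjusted p = 9.9e-08).

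Pcdh12 was read 105 times in RA shMed12 cells and 3 times in RA shNMC cells, a ratio of 35.5 (counting interval 11.8 to 175, edgeR adjusted p = 1.9e-06). Pcdh11x had 0.463, 0.374 and 0.233 CPM with shMed12, against 0.0179, 0.16 and 0.0559 CPM with shNMC, without overlap (log2 change 2.15, SE 0.53, edgeR adjusted p = 0.0032). Pcdh18 had 3.68, 3.83 and 3.03 CPM, against 1.34, 1.47 and 1.3 CPM (log2 change 1.36, SE 0.27, edgeR adjusted p = 0.00032). Pcdh19 had 17.4, 15.5 and 18.8 CPM, against 11.7, 12.4 and 9.83 CPM, which do not overlap, and was not called (log2 change 0.61, SE 0.38, edgeR adjusted p = 0.21). That SE rests on the spread over all 24 libraries, among them those labelled shRing1b, where Pcdh19 had 102, 263 and 31 reads. The part of the shRing1b libraries in the SE was not tested. Pcdh8, Pcdh9, Pcdh10, Pcdh17 and Pcdh20 had log2 changes of 0.82, -0.22, -0.32, -0.68 and -0.33 and were not called (edgeR adjusted p = 0.12 to 0.74).

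Pcdhgc3 had 17.9, 20.9 and 18.7 CPM in RA shMed12 cells, against 6.38, 7.81 and 10 CPM in RA shNMC cells (log2 change 1.25, SE 0.16, edgeR adjusted p = 2.0e-06). Pcdhgc5 had 1.23, 1.19 and 1.17 CPM, against 0.304, 0.479 and 0.577 CPM (log2 change 1.40, SE 0.31, edgeR adjusted p = 0.0011). Pcdhgc4 had 0.752, 0.66 and 0.341 CPM, against 0.197, 0.302 and 0.261 CPM (log2 change 1.2, SE 0.42, edgeR adjusted p = 0.025), a call that ended in 4 of the 6 fits without 1 library (up to 0.11). In none of the 3 did the groups overlap, and C genes took 30.2% to 37.3% of gamma reads in RA shMed12 libraries, against 10.7% to 13.3% in RA shNMC libraries. Pcdhgc3 gave 930, 1172 and 1045 of the 1033, 1276 and 1129 C reads in the RA shMed12 libraries.

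Among the gamma A and B genes that fell, Pcdhga1 had 5.07, 5.42 and 6.55 CPM in RA shMed12 cells, against 10.5, 10.5 and 11 CPM in RA shNMC cells (log2 change -0.91, SE 0.18, edgeR adjusted p = 0.00040). Pcdhga3 had 2.62, 3.05 and 3.84 CPM, against 5.83, 6.02 and 7.15 CPM (log2 change -1.0, SE 0.23, edgeR adjusted p = 0.0017). Pcdhga4 had 3.3, 2.85 and 3.91 CPM, against 6.06, 5.04 and 5.33 CPM (log2 change -0.71, SE 0.18, edgeR adjusted p = 0.0031). These groups did not overlap.

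Pcdhgb1, Pcdhga8 and Pcdhgb5 fell by 1.09, 1.36 and 1.15 on the log2 scale (edgeR adjusted p = 0.0017, 0.0069 and 0.0092). The calls of Pcdhga9, Pcdhga5 and Pcdhgb6 (log2 change -0.78, -0.66 and -0.75, edgeR adjusted p = 0.028, 0.031 and 0.037) ended in 4, 5 and 5 of the 6 fits without 1 library, with adjusted p up to 0.14, 0.10 and 0.17. Pcdhgb8 and Pcdhga12, which fell with shMed12 in mESCs, had log2 changes of -0.17 and -0.35 here and were not called. Pcdhga11 stood at 0.45 and Pcdhgb7 at 0.14 on that scale, also not called (edgeR adjusted p = 0.051 and 0.72), though DESeq2 called Pcdhga11 higher (adjusted p = 0.025). So did edgeR with a filter of 1 CPM in 3 libraries, in the compared groups alone and with the replicate block (adjusted p = 0.045, 0.028 and 0.0051). The compared groups alone and the block also called Pcdhgb2 and Pcdhb4 lower, and the block added Pcdhga2, Pcdhga6 and Pcdhb19 as lower. Of all 16280 genes, the compared groups alone called 8482 and the block 10408, against 6814 as reported. Residuals of the replicate 2 libraries of these groups correlated at only 0.067.

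**Figure D3:**
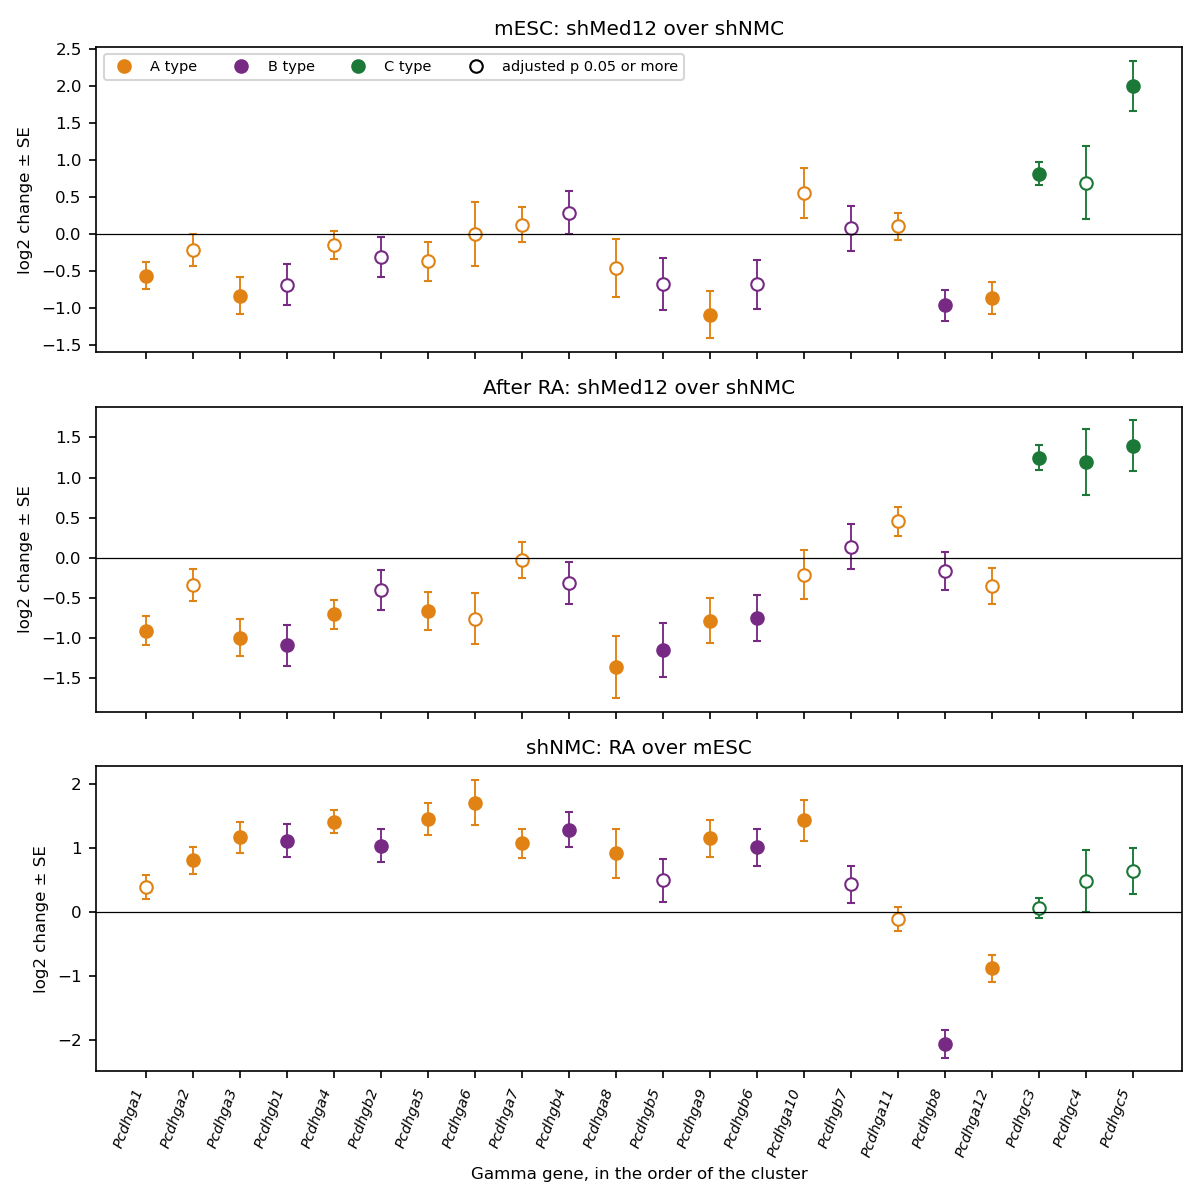
Log2 change ± SE (y axes) of the 22 gamma genes in their order along the cluster (x axis) for shMed12 over shNMC in mESCs, shMed12 over shNMC after RA, and RA over mESC in shNMC cells. Filled points passed an adjusted p of 0.05. The C genes at the right lay above 0 in both shMed12 panels (Pcdhgc3 at 0.82 and 1.25), and Pcdhgb8 (-2.06) and Pcdhga12 (-0.89) were the only calls below 0 in the RA panel.

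The 7 beta genes that fell with shMed12 after RA were Pcdhb2, Pcdhb3, Pcdhb7, Pcdhb14, Pcdhb16, Pcdhb17 and Pcdhb18. Pcdhb7 and Pcdhb17 passed the filter through RA shCdk8 and RA shNMC libraries alone, which favours a call as lower. Pcdhb3 had 0.463, 0.535 and 0.502 CPM in RA shMed12 cells, against 1.11, 1.33 and 1.12 CPM in RA shNMC cells (log2 change -1.24, SE 0.31, edgeR adjusted p = 0.0026). Pcdhb2 had 0.482, 0.25 and 0.287 CPM, against 0.858, 0.976 and 1.17 CPM (log2 change -1.56, SE 0.36, edgeR adjusted p = 0.0016). Pcdhb14 had 0.232, 0.25 and 0.161 CPM, against 0.679, 0.905 and 0.484 CPM (log2 change -1.68, SE 0.48, edgeR adjusted p = 0.0080). None of these groups overlapped.

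Pcdhb7 fell by 2.23 on the log2 scale (edgeR adjusted p = 0.0013), with 0.0178 to 0.0772 CPM in the RA shMed12 libraries, against 0.168 to 0.284 CPM in the RA shNMC libraries. Pcdhb16, Pcdhb18 and Pcdhb17 (log2 change -1.37, -1.38 and -1.85, edgeR adjusted p = 0.0097, 0.012 and 0.035) lost their calls in 2, 1 and 4 of the 6 fits without 1 library, with adjusted p up to 0.059, 0.052 and 0.14. Pcdhb22 ran the other way, at 0.675, 0.838 and 0.807 CPM in RA shMed12 cells, against 0.483, 0.603 and 0.54 CPM in RA shNMC cells, without passing (log2 change 0.51, SE 0.25, edgeR adjusted p = 0.10). Pcdhac2 fell by 0.97 (SE 0.37, edgeR adjusted p = 0.039), a call that ended in 5 of the 6 fits (up to 0.14).

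**Figure D4:**
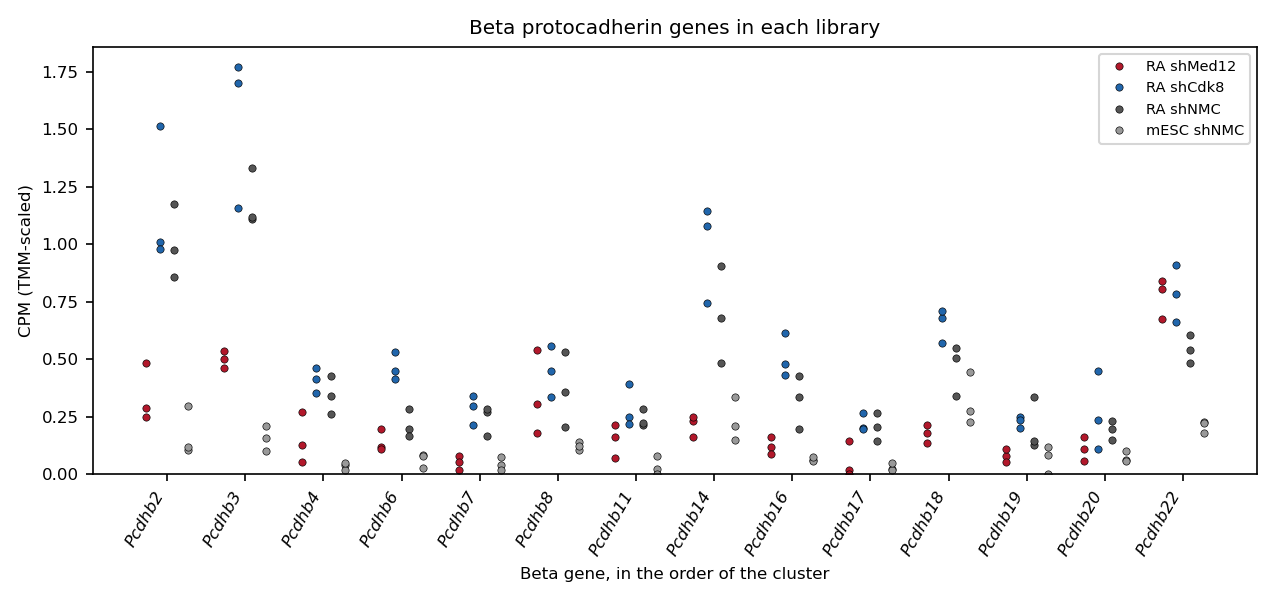
TMM-scaled CPM (y axis, from 0) of the 14 tested beta genes in the order of the cluster (x axis), 3 libraries each of RA shMed12, RA shCdk8, RA shNMC and mESC shNMC. In Pcdhb3 the RA shMed12 libraries reached 0.535 CPM at most, below every RA shNMC library (1.11 CPM or more) and above every mESC shNMC library (0.208 CPM or less).

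The markers named above moved in these libraries too. All 7 trophectoderm markers rose, summing to 701 to 923 CPM in RA shMed12, against 35.5 to 47.4 CPM in RA shNMC, and all 6 pluripotency markers fell. Of 8 fibroblast and smooth muscle markers 5 rose and 1 fell (411 to 450 CPM against 95.6 to 137 CPM), and of 4 endothelial markers 0 rose and 2 fell (43.8 to 58.6 CPM against 172 to 214 CPM). Of 8 extraembryonic endoderm markers 0 rose and 5 fell (17.1 to 17.9 CPM against 31.5 to 39.5 CPM). Of 6 neural markers tested 1 rose and 3 fell, with sums of 129 to 136 CPM against 111 to 122 CPM. Their part in these results was not tested.

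Whether the shMed12 effect differed between the states was tested as an interaction, which called 2 members where 5.04% of all genes were called. Pcdh1 rose more with shMed12 after RA than before (log2 difference of the changes 1.01, SE 0.23, edgeR adjusted p = 0.011). Pcdh18 rose less after RA than before, with changes of 1.36 and 5.11 (log2 difference -3.75, SE 0.46, edgeR adjusted p = 5.1e-05). Its level with shMed12 was 3.68, 3.83 and 3.03 CPM after RA and 4.38, 4.33 and 2.64 CPM before, while in shNMC cells it was 1.34, 1.47 and 1.3 CPM after RA and 0.083, 0.157 and 0.0737 CPM before. Of the 38 clustered genes 0 passed the interaction test in edgeR, with 5 at an unadjusted p under 0.05, and 0 in DESeq2. Without RA shMed12 replicate 2 Pcdhb17 passed (edgeR adjusted p = 0.030). Fitted alone, the 4 groups gave 4 calls, all non-clustered, where 13.6% of all genes were called, and the 2 added were Pcdh19 and Pcdh20 (log2 difference -1.12 and -2.82, edgeR adjusted p = 0.0014 and 0.024).

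The response to RA itself was measured within each hairpin. In shMed12 cells 21 members rose and 1 fell after RA, where 19.6% of all genes rose and 17.5% fell (37.1% in all). At a change of 2-fold or more 14 members were called, against 12.5% of all genes. In shCdk8 cells 38 rose and 1 fell, where 26.7% rose and 25.1% fell (51.7% in all). The 1 that fell was Pcdhgb8 in both (log2 change -1.27 in shMed12 and -1.60 in shCdk8 cells, edgeR adjusted p = 0.00017 and 2.0e-06). Pcdh1 rose by 1.72 (SE 0.16) in shMed12 cells and by 2.07 (SE 0.17) in shCdk8 cells on the log2 scale. Pcdh18 was not called in shMed12 cells (log2 change -0.10, SE 0.26, edgeR adjusted p = 0.78) and rose by 3.23 (SE 0.33, edgeR adjusted p = 6.6e-08) in shCdk8 cells. Of the beta genes 5 of 14 rose in shMed12 cells and 12 of 14 in shCdk8 cells, a difference of counts that was not tested as such. The 5 became 3 without RA shMed12 replicate 1 or mESC shMed12 replicate 1. Pcdhgc3 rose in both, by 0.48 and 0.44 (edgeR adjusted p = 0.019 and 0.024), calls that ended in 2 and 4 of the 6 fits without 1 library (up to 0.082 and 0.15).

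The Cdk8 hairpin was set against shNMC in the same way. In mESCs edgeR called 0 of the 49 members, where 3.66% of all genes were called, with 3 at an unadjusted p under 0.05 and 1 called by DESeq2, Pcdhga4. Fitted alone, these groups gave 2 calls, Pcdhga4 and Pcdh19 (log2 change 0.55 and 0.68, edgeR adjusted p = 0.035 and 0.026), where 14.3% of all genes were called. After RA it called 3 members, all higher, where 4.1% of all genes rose and 3.64% fell (7.73% in all). At 2-fold or more 1 member was called, against 1.85% of all genes. Pcdh1 had 19.3, 21.7 and 18.2 CPM in RA shCdk8 cells, against 6.84, 7.17 and 6.18 CPM in RA shNMC cells, far apart (log2 change 1.55, SE 0.16, edgeR adjusted p = 4.7e-06). Pcdhgc3 had 10.6, 13.2 and 12.9 CPM, against 6.38, 7.81 and 10 CPM (log2 change 0.60, SE 0.16, edgeR adjusted p = 0.022), and Pcdhga11 had 3.34, 4.23 and 3.72 CPM, against 2.11, 2.75 and 2.5 CPM (log2 change 0.62, SE 0.18, edgeR adjusted p = 0.039). The Pcdhgc3 call ended in 4 and the Pcdhga11 call in 6 of the 6 fits without 1 library (up to 0.14 and 0.19), so the count was 1 without shCdk8 replicate 2 or 3 or without shNMC replicate 1 or 2, and 2 without shCdk8 replicate 1 or shNMC replicate 3.

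Same-numbered RA shCdk8 and RA shNMC libraries deviated together, and with the replicate number as a block edgeR called 15 members, all higher, including those 3. That fit called 49.1% of all genes, a larger share than of the members. The 15 comprised 5 non-clustered, 7 gamma A and B, 1 gamma C and 2 beta genes. Among them were Pcdh19 (log2 change 0.88, edgeR adjusted p = 2.6e-07 with the block, 0.17 without), Pcdh18 (0.67, 0.0015 with and 0.13 without), Pcdh8 (0.63, 0.0060 with and 0.39 without) and Pcdh7 (17 reads against 3, a ratio of 5.34 within counting bounds of 1.54 and 28.4, 0.024 with and 0.078 without). Pcdh19 had 20.1, 23.5 and 18.9 CPM in RA shCdk8 cells, against 11.7, 12.4 and 9.83 CPM in RA shNMC cells, with no overlap. All 6 pluripotency markers fell in the same comparison without the block, and 0 of 7 trophectoderm markers was called.

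Pcdh1 was the 1 member whose shCdk8 effect differed between states, where 0.0369% of all genes were called in that interaction. It had 4.39, 4.26 and 5.38 CPM in shCdk8 mESCs, against 4.23, 3.23 and 4.89 CPM in shNMC mESCs, which overlap, and the difference of the changes was 1.36 (SE 0.24, edgeR adjusted p = 0.035). That call ended in 9 of the 12 fits without 1 library, with adjusted p up to 0.16.

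Set directly against shCdk8, shMed12 gave 8 members higher and 8 lower in mESCs, where 18.4% and 17.4% of all genes were (35.8% in all, and at 2-fold or more 8 members and 15% of all genes). After RA it gave 8 higher and 25 lower, where 21.3% and 20.1% were (41.4% in all, and at 2-fold or more 19 members and 14.6% of all genes). In mESCs the 8 higher were 6 non-clustered and 2 gamma C genes, and all 8 lower were gamma A and B genes. Those 8 became 4 without shMed12 replicate 1 or 2 or shCdk8 replicate 3, and 5 without shMed12 replicate 3 or shCdk8 replicate 2, and the call of Pcdh8, 1 of the 6, ended in all 6 fits without 1 library. With the replicate number as a block, under which the libraries of these groups deviated together, 8 non-clustered genes were higher and 12 gamma A and B and 2 beta genes lower, where 64.7% of all genes were called. After RA, 5 non-clustered and all 3 gamma C genes were higher, and 14 gamma A and B, 10 beta and 1 alpha gene were lower. The 14 became 8 without RA shCdk8 replicate 3 or RA shMed12 replicate 2, and the alpha call, of Pcdhac2, ended in 5 of the 6 fits. Pcdh1 differed by 1.68 (SE 0.16, edgeR adjusted p = 4.4e-08) after RA and by 2.03 (SE 0.17, edgeR adjusted p = 4.5e-09) in mESCs on the log2 scale. Pcdhb3 was lower by a log2 difference of -1.62 (SE 0.30, edgeR adjusted p = 0.00022) after RA. Pcdh7, Pcdh12 and Pcdh11x, called higher in both states, passed the filter through shMed12 libraries alone. Pcdhb7 and Pcdhb17, called lower after RA, passed it through RA shCdk8 and RA shNMC libraries alone.

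For Pcdh1 the order of levels over the groups was RA shMed12, RA shCdk8, mESC shMed12, RA shNMC, then the 4 other mESC groups. RA shMed12 libraries stood apart from those of RA shCdk8, which overlapped those of mESC shMed12, and mESC shMed12 stood apart from RA shNMC. The 5 lowest groups overlapped their neighbours. In Pcdh19 the order was RA shCdk8, RA shMed12 and RA shNMC, each apart from the next, with mESC shRing1b and mESC shMed12 after them overlapping each other.

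The last comparison sets shRing1b beside untransfected mESCs. It called 1 of 49 members, Pcdh19, higher, where 9.68% of all genes were higher and 5.42% lower (15.1% in all). The shRing1b libraries differed more than those of any other group, with a mean chi-square per gene of 53.0 to 133 between replicates, against 52.0 at most elsewhere. Fitted alone, with their own spread, the compared groups gave 0 calls over all genes, against 2459 in the fit of all libraries. Pcdh19 had 3.44, 9.52 and 0.92 CPM in the libraries labelled shRing1b replicates 1, 2 and 3, against 1.56, 2.35 and 1.23 CPM in untransfected mESCs (log2 change 1.42, SE 0.45, edgeR adjusted p = 0.037). Replicate 2 was far above the others, replicate 3 was below every untransfected library, and the call ended without replicate 2 (adjusted p = 0.56) and without untransfected replicate 1 (0.086) or 3 (0.15).

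Without the library labelled shRing1b replicate 3 the same test called 10 members, all higher, namely 6 non-clustered, 3 gamma A and B and 1 beta gene, where 24% of all genes were called, a larger share than of the members. In that fit Pcdh19 had a log2 change of 1.92, Pcdh8 of 1.98, Pcdh9 of 2.17, Pcdh18 of 1.49 and Pcdh1 of 0.51 (edgeR adjusted p = 6.7e-05, 9.9e-05, 0.0066, 0.020 and 0.049), and Pcdh7 passed at 0.0499. Over replicates 1 and 2 Pcdh7 was read 5 times, against 0 times in untransfected mESCs, at least 2.3-fold higher on the floor of 3 counts (at least 1.74-fold with replicate 3). The beta gene was Pcdhb16 (edgeR adjusted p = 0.019), read 12 times over replicates 1 and 2 and 3 times in untransfected mESCs, a ratio of 5.51 (counting interval 1.49 to 30.4, and 4.05 with replicate 3), and the gamma genes were Pcdhga2, Pcdhga1 and Pcdhga10, at log2 changes of 0.59, 0.55 and 0.90. Pcdh8 had 1.82, 1.09 and 0.119 CPM in replicates 1, 2 and 3, against 0.482, 0.239 and 0.371 CPM in untransfected mESCs, and replicates 1 and 2 were above all of these. With shNMC mESCs as the control in place of untransfected ones, 7 members were called, all non-clustered and all higher, where 20.2% of all genes were called, but those libraries differ in depth and in multi-aligned reads. Trophectoderm markers summed to 47.4 to 111 CPM with shRing1b and 18.05 to 28.6 CPM without, with 6 of 7 higher, and extraembryonic endoderm markers to 22.9 to 205 CPM and 29.7 to 43.5 CPM, with 1 of 8 higher. Their part was not tested. Between shNMC and untransfected mESCs edgeR called 0 of the 49 members, where 0.00614% of all genes were called, with 1 at an unadjusted p under 0.05, and 0 by DESeq2.

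Lists of other genes of the pathway, drawn up from textbook membership, were set beside the members. Of 20 regulators of the clusters (cohesin subunits and loaders, Ctcf, DNA and histone methyltransferases, Smchd1, Rest and others), 3 rose and 5 fell with shMed12 in mESCs, 3 rose and 4 fell with it after RA, and 1 rose and 10 fell with RA in shNMC cells. The shares of all genes called in those 3 comparisons, in either direction, were 40.5%, 41.9% and 51.4%, and they hold for each list that follows, so that counts near or under them show nothing particular to a list. Dnmt3b, the methyltransferase of the variable exon promoters, stood at 539 ± 11 CPM in shMed12 and 210 ± 31 CPM in shNMC mESCs (SD, n = 3 each, log2 change 1.36, edgeR adjusted p = 6.4e-08). In RA-treated cells Dnmt3b averaged 272 ± 6.1 CPM in shMed12 and 103 ± 3.7 CPM in shNMC cells (log2 change 1.40, edgeR adjusted p = 5.7e-08), and with RA it fell by 1.03 on the log2 scale in shNMC cells (edgeR adjusted p = 2.5e-06). The cohesin subunit Stag2 rose by 0.46 with shMed12 in mESCs, and the H3K9 methyltransferase gene Ehmt2 by 0.84 (edgeR adjusted p = 0.00010 and 0.00021), while the cohesin regulator Pds5a fell by 0.46 (0.0018). Smchd1 stood at 206 ± 16 CPM in RA shMed12 and 265 ± 19 CPM in RA shNMC (log2 change -0.36, edgeR adjusted p = 0.0040). With RA in shNMC cells the cohesin release factor Wapal, the repressor Rest and the maintenance methyltransferase Dnmt1 fell by 0.61, 1.35 and 0.55 (edgeR adjusted p = 1.4e-05, 1.5e-05 and 3.7e-05).

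Of 14 partners and effectors of protocadherins (WAVE complex subunits, kinases, the protease Adam10 and others), 3 rose and 0 fell with shMed12 in mESCs, led by Wasf1 at 0.36. After RA 3 rose and 1 fell, led by the Pcdhgc3 partner Axin1 at 0.40, with Adam10, which cleaves gamma protocadherins, at -0.30 (edgeR adjusted p = 0.00045, 0.00068 and 0.022). Of 13 related cadherins of the Fat, Dachsous, Celsr and Cdhr groups, 3 rose and 2 fell with shMed12 in mESCs, among them Dchs1 at 1.66, Fat1 at 1.12, Fat4 at 3.40 and Fat2 at -2.46 (edgeR adjusted p = 6.0e-05, 0.00018, 0.0011 and 1.8e-06). After RA 2 rose and 3 fell with shMed12, and with RA in shNMC cells 6 rose and 2 fell. Among 16 classical cadherins, shMed12 in mESCs raised 6 and lowered 1. After RA 6 rose and 2 fell with it, and 6 rose and 4 fell with RA itself, near the shares of all genes given above. E-cadherin, Cdh1, was at 977 ± 48 CPM in RA shMed12 and 540 ± 52 CPM in RA shNMC (log2 change 0.85, edgeR adjusted p = 1.8e-06), and P-cadherin, Cdh3, at 41.7 ± 6.2 CPM and 10.8 ± 2.8 CPM (log2 change 1.94, edgeR adjusted p = 8.7e-07).

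Of 16 genes around the clusters on chromosome 18, 1 rose and 2 fell with shMed12 in mESCs, 4 rose and 1 fell with it after RA, and 2 rose and 6 fell with RA. For shMed12 these shares were below those of all genes (40.5% and 41.9%). Arap3, a GTPase-activating protein of the lymphatic and blood vessel wall that lies between the gamma cluster and Pcdh1, stood at 62.2 ± 4.2 CPM in RA shMed12 and 14.5 ± 0.29 CPM in RA shNMC. In mESCs it stood at 24.9 ± 0.33 CPM with shMed12 and 7.36 ± 1.1 CPM with shNMC (SD, n = 3 each). It rose by 2.10 and 1.76 on the log2 scale with shMed12 after RA and in mESCs, and by 0.87 with shCdk8 after RA (edgeR adjusted p = 6.1e-08, 6.7e-07 and 0.010). Pcdh1 rose in the same 3 comparisons, by 3.23, 2.22 and 1.55. Pcdh12, the next protocadherin gene along the chromosome in GENCODE, rose with shMed12 in both states. With shCdk8 after RA Pcdh12 was read 13 times against 3, a ratio of 4.08 (counting interval 1.12 to 22.3). At that depth it was not called (edgeR adjusted p = 0.17).

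Of the members that did not reach the filter, Pcdh15, a component of the tip links of inner ear hair cells, had 71 reads in all, 6, 25 and 11 of them in RA shMed12, RA shCdk8 and RA shNMC. The 8 beta genes outside the filter (Pcdhb1, Pcdhb5, Pcdhb9, Pcdhb10, Pcdhb12, Pcdhb13, Pcdhb15 and Pcdhb21) had 17 to 88 reads each over the 24 libraries. Pcdhb1 had 13, 44 and 24 reads in RA shMed12, RA shCdk8 and RA shNMC and 1 read in mESC shNMC. Pcdh17 and Pcdhb20 were the 2 of the 49 tested members called in none of the 13 comparisons made.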

How the data were processed

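Each of the 24 deposited files lists read counts by gene symbol, not normalized, from strand-specific poly-A libraries read to 50 bp, per the labels' protocols. The submitters' processing notes name HTSeq 0.6.1p1, STAR 2.3.1z13, DESeq2 1.6.3, bcl2fastq 1.8.4 and SAMtools 1.2, with build mm9. Roles, annotation, strand setting and the rule for reads on shared exons were not given in the sources used here. Library sizes leave out 5 entries per file that name no gene. They include reads with several alignments (20.02% to 49.1% of entries) and ambiguous reads (0.111% to 0.197%).

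A robust quasi-likelihood F test from edgeR 4.0.16 (R 4.3.3), two-sided, with TMM scaling, was fitted with a mean for each of the 8 groups, which left 16 residual degrees of freedom. It ran on the 16280 genes that filterByExpr retained, all of which entered the Benjamini-Hochberg adjustment. SEs were derived from the log2 change and its F value. In a library the floor of 3 counts equals 0.0463 to 0.120 CPM. Intervals and floors cover counting error only and use 95% exact bounds. Alternatives were DESeq2 1.42.0, median-ratio scaling, other filters, a fit of the compared groups alone, a replicate block and leaving out each library. The test was tried on simulated counts before use. Mean chi-square per gene between replicates was 7.50 to 133, so none was counted as a repeat. Replicate numbers come from the sample titles. Residuals of same-numbered libraries correlated over 0.1 in all 3 pairs for RA shCdk8 and RA shNMC (0.475, 0.287, 0.537), RA shCdk8 and mESC shCdk8 (0.358, 0.169, 0.371) and mESC shMed12 and mESC shCdk8 (0.195, 0.157, 0.339).

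The members, lists and tests were chosen with earlier results of these data known. Named with values were every non-clustered gene tested, every clustered gene called in at least 1 comparison with a group mean of 0.5 CPM or more, the hairpin targets and, of each list, up to 4 called genes of lowest p per comparison, of which not all are printed. Some genes outside this rule are named with counts or values after these were seen. Brk1, Dchs2, Map2 and Tfap2c were not used here. Knockdowns of Zrf1 and untransfected cells after RA, which the series text mentions, were not analysed here. Exon sharing used GENCODE vM21 on GRCm38, matched by symbol, and Pcdha10 and Pcdha4-g had no match.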

Additional observations from a re-analysis of the deposited data

Results flagged for a closer look

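The effect of a hairpin differed between the 2 states, by an interaction term, in 3 results. For Pcdh1 the log2 change with shMed12 was larger after RA (3.23) than in mESCs (2.22), a difference of 1.01. For Pcdh18 it was smaller after RA (1.36) than in mESCs (5.11), a difference of -3.75. For Pcdh1 the change with shCdk8 was larger after RA (1.55) than in mESCs (0.19), a difference of 1.36, whose call ended in 9 of the 12 fits without 1 library.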

How the results depend on the processing

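Over 13 comparisons 193 calls of members were made. None reversed under any alternative, 51 ended when some 1 library was left out, 13 ended with DESeq2, 12 with no filter on low counts, 3 in the fit of the compared groups alone, 2 with the replicate block and 1 with median-ratio scaling. Counts of called members that moved by over 1.5 times were as follows, and the cause was not tested. For shCdk8 in mESCs the count was 1 with DESeq2, 2 in the fit of the compared groups alone and the same 2, Pcdh19 and Pcdhga4, with the replicate block (0 as reported). For shRing1b it was 2 with DESeq2, 7 with shNMC mESCs as the control, and 0 with no filter, in the fit of the compared groups alone or with the replicate block, which called 0 of all genes (1 as reported). For RA shCdk8 against RA shNMC it was 1 at a fold of 2 or more, 8 in the compared groups alone and 15 with the replicate block (3 as reported). A filter of 1 CPM in 3 libraries, which leaves fewer members, gave 21 for RA in shNMC cells (36 as reported), 22 for RA in shCdk8 cells (39) and 21 for shMed12 against shCdk8 after RA (33). A fold of 2 or more gave 14 for RA in shMed12 cells (22), 8 for shMed12 against shCdk8 in mESCs (16) and 19 after RA (33). The Med12 interaction had 4 in the compared groups alone and 7 with the replicate block (2), of which Pcdhga4 and Pcdhga8 were clustered (adjusted p = 0.044 and 0.015). Leaving out 1 library gave 0 to 10 for shRing1b, 1 to 2 for RA shCdk8, 0 to 1 for the Cdk8 interaction, 11 to 14 for shMed12 in mESCs (15), 18 to 23 after RA (25) and 32 to 35 for RA in shNMC cells. The block changed no other count of members by over 1.5 times.

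Calls over all genes moved with the block to 4187 for shCdk8 in mESCs (596 as reported), 7996 for it after RA (1259), 10408 for shMed12 after RA (6814), 10046 for RA in shMed12 cells (6044), 10530 and 10616 for shMed12 against shCdk8 in mESCs and after RA (5833 and 6747), 3715 for the Med12 interaction (820) and 301 for the Cdk8 interaction (6). DESeq2 gave 1107, 1250 and 27, and the compared groups alone 2336, 2220 and 36, for shCdk8 in mESCs and the Med12 and Cdk8 interactions, and 2744 for shCdk8 after RA in the compared groups alone. Plain CPM without TMM would shift every log2 change of RA against mESC up by 0.25 in shNMC, 0.15 in shMed12 and 0.23 in shCdk8 cells. It gave class sums in RA shCdk8 of 1.99 CPM (alpha), 10.3 (beta), 92.1 (gamma), 77.4 (gamma A and B), 14.7 (gamma C) and 51.6 (non-clustered). Non-clustered sums became 94.2 CPM in RA shMed12 and 23.9 CPM in RA shNMC, and in mESC shNMC the sums were 1.57 (beta), 43.5 (gamma) and 35.8 CPM (gamma A and B). Depth limits Pcdh7, Pcdh11x, Pcdh12 and Pcdh20 in shNMC mESCs, where the group held 0 to 3 reads, and the alpha genes other than Pcdhac2, which held 0 to 4.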
